A study of Mus musculus with 16 samples.

Results

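Among single cells of mouse small intestine, the cells richest in transcripts of *Sis*, *Gsta1*, *Aldh1a1*, *Gdpd2*, *Papss2* and *Cyp2d26* were examined. Each cell was scored by the summed unique molecular identifiers (UMIs, 1 per captured transcript molecule) of these 6 genes divided by all of its UMIs, and the 130 highest-scoring cells of the 1961 cells with at least 900 UMIs were taken as members, so they were chosen by the measured levels of these genes. The whole series holds 2597 cells. Since the score chose the members, the levels of the 6 genes in them are a description of the choice and not a result.

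The cells came from a crypt-enriched preparation of the small intestine at postnatal day 16 from wild-type (WT) mice and from ROBO-Crainbow (ROBO) mice. The paper isolated these crypts by its organoid protocol, which takes the duodenum and jejunum. In ROBO mice, Villin-Cre, which is active in the intestinal epithelium, switches individual epithelial cells to 1 of several fluorescently marked transgenes that encode the Wnt agonist RSPO3 or a PTPRK:RSPO3 fusion. Each genotype has 8 deposited samples of outbred mice, but its cells were deposited as 1 matrix in which the sample of a cell is not given, so each genotype was 1 pooled sample. No difference between genotypes or between sets of cells has a replicate check, and the intervals below are 95% intervals of counting error only.

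Enterocytes are the absorptive cells of the villus, and in mice their program turns over at the change from milk to solid food. Suckling enterocytes carry lactase, encoded by *Lct*, which splits milk sugar, and take up whole proteins by endocytosis. Weaned enterocytes carry the sucrase-isomaltase and trehalase that split the sugars of solid food, encoded by *Sis* and *Treh*. In textbook accounts *Sis* appears first in cells close to the crypt and spreads up the villus, while *Prdm1*, a transcriptional repressor that marks the suckling epithelium, disappears.

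Of the 6 genes, *Sis* supplied 780 of the members' UMIs and was found in 115 of the 130 cells. Its level was 22.2 UMIs per 10000 UMIs (95% interval 19.9 to 24.6) in the 64 WT members and 24.1 (21.9 to 26.6) in the 66 ROBO members, and single cells ranged from 0 to 98.7. *Papss2*, which makes the sulfate donor of sulfation reactions, gave 266 UMIs in 66 members. *Cyp2d26*, a cytochrome P450, gave 239 in 91 members and *Aldh1a1*, a retinaldehyde dehydrogenase that makes retinoic acid, gave 211 in 73 members. *Gsta1*, a glutathione transferase, gave 46 UMIs in 29 members and *Gdpd2*, a glycerophosphodiesterase, gave 43 in 31 members, so *Gsta1* made up 2.90% of the UMIs behind the scores and *Sis* 49.2%. The members were thus led by *Sis* and not by *Gsta1*. Reads of *Gsta1* and *Gsta2*, of *Aldh1a1* and *Aldh1a7*, and of the Cyp2d genes could be divided between near-identical copies by the authors' counting, so these counts are uncertain.

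Few members held all 6 genes. A total of 37 members had UMIs of 2 of the genes, 36 of 3 genes, 32 of 4 genes, 15 of 5 genes, 2 of all 6 and 8 of a single gene. The scores ran from 129.9 UMIs per 10000 in the first member to 21.8 in the last, with a median of 39.8. There was no gap at the limit: the last 2 members scored 21.79 and 21.75, and the next 2 cells, just outside, scored 21.72 and 21.60. The last member held 9 UMIs of the 6 genes among 4137, and the next cell held 2 among 921.

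**Figure D1:**
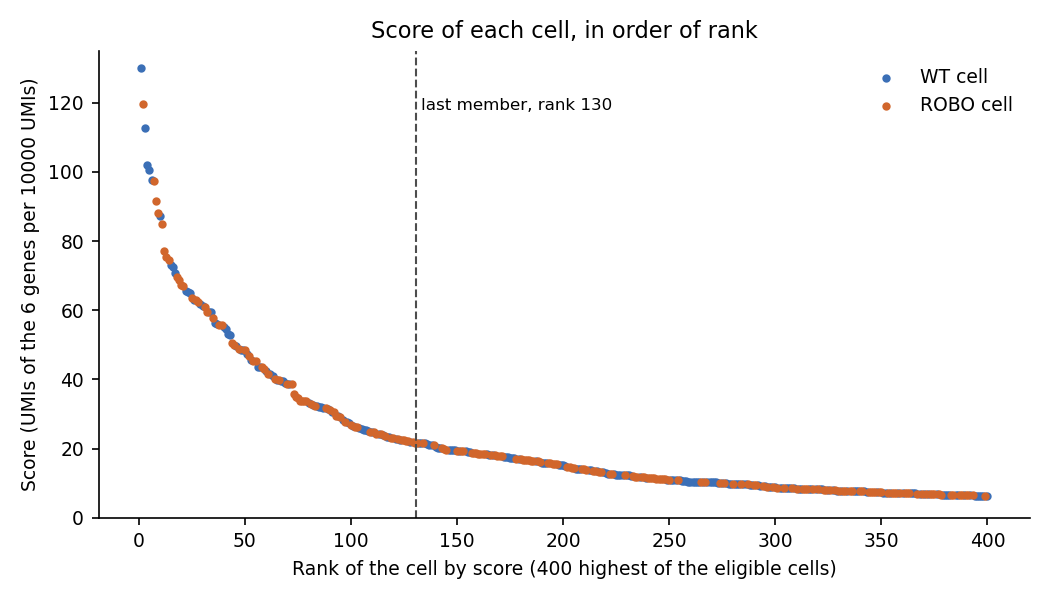
Score of each of the 400 highest-scoring cells (UMIs of the 6 genes per 10000 UMIs, vertical axis) against rank (horizontal axis), with WT cells in blue and ROBO cells in orange. Scores fall from 129.9 at rank 1 to 21.75 at rank 130, the dashed line, without a step, and both genotypes occur along the whole curve.

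Sequence upstream of *Sis* and *Lct* is shown because transcripts of the weaning-stage and the suckling-stage disaccharidase were found in the same members. The 250 bases before the start of each gene in the RefSeq table for GRCm38.p6 are written 5′ to 3′ on the gene's strand. In the GENCODE M21 annotation of the same build *Sis* lies at chr3:72888557-72967863 and *Lct* at chr1:128284756-128328318, so the windows lie outside both genes. The windows are chr3:72967864-72968113 for *Sis* and chr1:128328319-128328568 for *Lct*, both on the minus strand. Capitals mark exact matches on either strand to TTTAT, a core recognised by CDX factors, and to AGATAA, a core recognised by GATA factors. Matches to TTTAT and AGATAA overlap at 1 place in the *Lct* sequence.
Sis upstream: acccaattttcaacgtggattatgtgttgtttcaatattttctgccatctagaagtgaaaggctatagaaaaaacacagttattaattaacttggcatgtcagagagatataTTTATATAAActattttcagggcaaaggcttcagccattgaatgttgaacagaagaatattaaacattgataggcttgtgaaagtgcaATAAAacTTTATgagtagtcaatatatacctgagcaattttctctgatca
Lct upstream: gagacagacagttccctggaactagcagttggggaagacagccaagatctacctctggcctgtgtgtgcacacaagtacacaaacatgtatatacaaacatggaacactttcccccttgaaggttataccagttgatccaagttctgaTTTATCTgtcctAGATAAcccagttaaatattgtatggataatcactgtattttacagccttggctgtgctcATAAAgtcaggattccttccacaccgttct
The *Sis* sequence held 4 matches to TTTAT and 0 to AGATAA, and the *Lct* sequence held 2 of each. The window before *Mgam*, another weaning-stage gene, also held 2 of each. Over all 32817 windows of the same kind, 37.3% held TTTAT and 9.99% held AGATAA. A match describes the letters of the window and shows no binding.

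Members made up 6.45% (5.00 to 8.16) of the 993 eligible WT cells and 6.82% (5.31 to 8.59) of the 968 eligible ROBO cells, by exact Clopper-Pearson intervals. The difference, ROBO minus WT, was 0.373 percentage points with a Newcombe interval of -1.85 to 2.60. That interval allows differences of more than 2 points to the ROBO side, so equal shares are not shown. WT members had a median of 1945.5 UMIs and ROBO members of 2196.5, against 1977 and 1980.5 in all eligible cells of each genotype.

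The enterocyte identity of the members was checked against markers. All 14 enterocyte markers were detected at enough UMIs to be compared, and 11 of them were at least 2-fold higher in the members than in the 1831 other eligible cells, while 0 were 2-fold lower. Over all 10436 genes compared with these cells, 6.78% were at least 2-fold higher and 29.8% at least 2-fold lower. *Fabp1*, which binds fatty acids in the cytosol, was at 82.8 UMIs per 10000 in WT members and 84.7 in ROBO members, against 10.8 in the other cells. *Slc5a1*, the sodium-glucose cotransporter, was at 14.7 in WT and 15.4 in ROBO members against 2.57. By contrast 13 of 14 stem cell markers and 20 of 21 dividing cell markers were at least 2-fold lower in the members. The stem cell marker *Slc12a2* gave 25 UMIs in all members together, or 0.744 per 10000, against 6.67 in the other cells.

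Markers of other cell types were low but not absent. The members held 692 UMIs of goblet cell markers, of which 495 lay in 1 WT member, and 82 of enteroendocrine markers, of which 48 lay in another WT member. In all, 5 members, all WT, held at least 10 UMIs of goblet or enteroendocrine markers, and no member reached 10 for Paneth, immune or fibroblast markers. All 9 fibroblast markers and all 7 tuft markers were at 0, as were 12 of the 14 immune markers measured. Tuft markers were near 0 in the other eligible cells as well, at 0.0994 UMIs per 10000 for the whole list.

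To place the members among enterocytes, 3 sets of other cells were taken by scores of their own, after the members had been set aside. A total of 113 suckling-type cells were highest in *Lct*, *Cubn* and *Gm2061*. A total of 130 bottom-type cells were highest in *Gsdmc4*, *Gsdmc2*, *Dmbt1* and *Reg1*, genes of the lower villus, and 121 top-type cells in *Mfi2*, *Gpx3* and *Ada*, genes of the villus tip. The genes that chose a set are described for it but are no result. Before the members were set aside, 4 of the 130 cells highest in the suckling score were members, as were 11 of those highest in the bottom score and 1 of those highest in the top score. Median depth was 2149.5 UMIs in the members, 1574 in suckling-type, 1965.5 in bottom-type and 1491 in top-type cells. All 7 goblet markers compared were at least 2-fold higher in the members than in suckling-type cells, where 13.2% of all genes were. Without the 5 members named above 3 could be compared, all 3 were higher, and the list gave 155 UMIs against 18. Against bottom-type cells 0 of 7 were then higher and 4 were lower, where 10.5% and 20.3% of all genes were with all members kept. Leaving those 5 cells out moved the number of genes at least 2-fold apart from 1124 to 1109 for suckling-type cells and from 1744 to 1751 for bottom-type cells.

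Most weaning-stage genes were higher in the members. *Mgam*, the maltase-glucoamylase that releases glucose from starch, was at 14.7 UMIs per 10000 in WT members and 17.0 in ROBO members. It was at 2.29 in suckling-type, 5.39 in bottom-type and 0.283 in top-type cells, so both groups of members lay above all 3 sets. *Arg2*, a mitochondrial arginase, was at 6.36 and 6.55 in WT and ROBO members against 0.609, 2.86 and 0.188 in the same sets. *Treh*, encoding trehalase, gave 35 UMIs in the members, 18 in WT and 17 in ROBO, against 9, 4 and 1 in the 3 sets. The fructose transporter *Slc2a5* gave 45 UMIs in the members and 22 in suckling-type cells, a log2 ratio of 0.38 (-0.39 to 1.18) that is within counting error, against 2 in bottom-type and 1 in top-type cells. *Alpi*, intestinal alkaline phosphatase, was close to suckling-type cells, with a log2 ratio of -0.05 whose interval included 0 (-0.22 to 0.13). *Akp3*, the duodenal alkaline phosphatase of the mouse, gave 9 UMIs in the members and 0 in each of the 3 sets. Of the 5 weaning-stage genes compared, apart from *Sis*, 3 were at least 2-fold higher than in suckling-type cells, 4 than in bottom-type and 4 than in top-type cells, and none was 2-fold lower in any of them. Of all genes compared, 13.2%, 10.5% and 30.0% were higher in the same comparisons.

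Suckling-stage genes did not behave as one group. *Lct* remained present: it was at 19.5 UMIs per 10000 (313 UMIs) in WT members and 21.2 (372 UMIs) in ROBO members, in 109 of the 130 cells. The suckling-type cells, chosen partly for *Lct*, were at 74.7, bottom-type cells at 1.20, top-type cells at 28.4 and all other eligible cells at 9.88. *Lct* in the members was thus 17.0-fold higher than in bottom-type cells (log2 ratio 4.08, 3.61 to 4.60) and above the general level by a log2 ratio of 1.04 (0.93 to 1.16).

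Several endocytic and regulatory genes of the suckling stage lay lower than in suckling-type and top-type cells. *Fcgrt*, the receptor that carries milk antibodies across the epithelium, was at 5.11 UMIs per 10000 in WT members and 6.89 in ROBO members. It was at 72.7 in suckling-type and 137 in top-type cells, a log2 ratio of -3.59 (-3.81 to -3.38) and of -4.50 (-4.71 to -4.30) for the members. *Dab2*, an adaptor of endocytosis, gave 2 UMIs in the members, 1 in each genotype, against 98 in suckling-type and 170 in top-type cells. *Prdm1* also gave 2 UMIs, 1 in each genotype, against 27 in suckling-type cells (log2 ratio -4.41, -7.53 to -2.42) and 26 in top-type cells. Of the 9 suckling-stage genes compared with suckling-type cells outside that set's own score, 6 were at least 2-fold lower, as were 10.8% of all genes, and 0 were 2-fold higher, with a list median of -2.00 on the log2 scale against 0.05 over all genes. Against bottom-type cells the same list read the other way, with 4 of 9 at least 2-fold higher, 1 lower and a median of 0.76 against -0.28 over all genes. Against top-type cells 7 of 11 were at least 2-fold lower, beside 10.4% of all genes. Another 3, *Cps1*, *Otc* and *Nags*, were higher there, beside 30.0% of all genes. Against all other eligible cells 3 of 11, *Prdm1*, *Dab2* and *Fcgrt*, were lower and 1, *Lct*, was higher, where 29.8% and 6.78% of all genes were. The list median there was -0.26 against -0.41 over all genes, so the list as a whole was not low against those cells. *Ass1*, an enzyme of arginine synthesis on that list, was listed at 0 in every set.

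*Sis* and *Lct* occurred in the same cells. Since members were chosen largely for *Sis*, the share with *Lct* is the part that the score did not set. A UMI of both was found in 98 of the 130 members, 75.4% (67.1 to 82.5). After each cell was thinned at random to 900 UMIs to equalise depth, both were found in 74 members, 56.9% (48.0 to 65.6), in 35 of 64 WT and 39 of 66 ROBO members. Another 22 thinned members held *Sis* without *Lct*, 20 held *Lct* without *Sis* and 14 held neither. Among suckling-type cells 0 of 113 held a UMI of both, before or after thinning, where 3 counts would be 2.65% and the exact upper bound is 3.21%. Among the 130 bottom-type cells 1 did after thinning and 7 before it, 5.38% (2.19 to 10.8). This contrast is partly built in, since members were removed first: before that, 3 of the 130 cells highest in the suckling score held *Sis*, with 31 UMIs, and all of these UMIs lay in members. In 28 cells rich in immune markers, which should hold neither transcript, thinning left 0 with *Sis* and 1 with *Lct*, and 1 and 2 held them before it, at a median of 2177 UMIs per cell against 2149.5 in the members. Members with both transcripts after thinning had a median of 2095 UMIs before it, and the other members 2170.

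**Figure D2:**
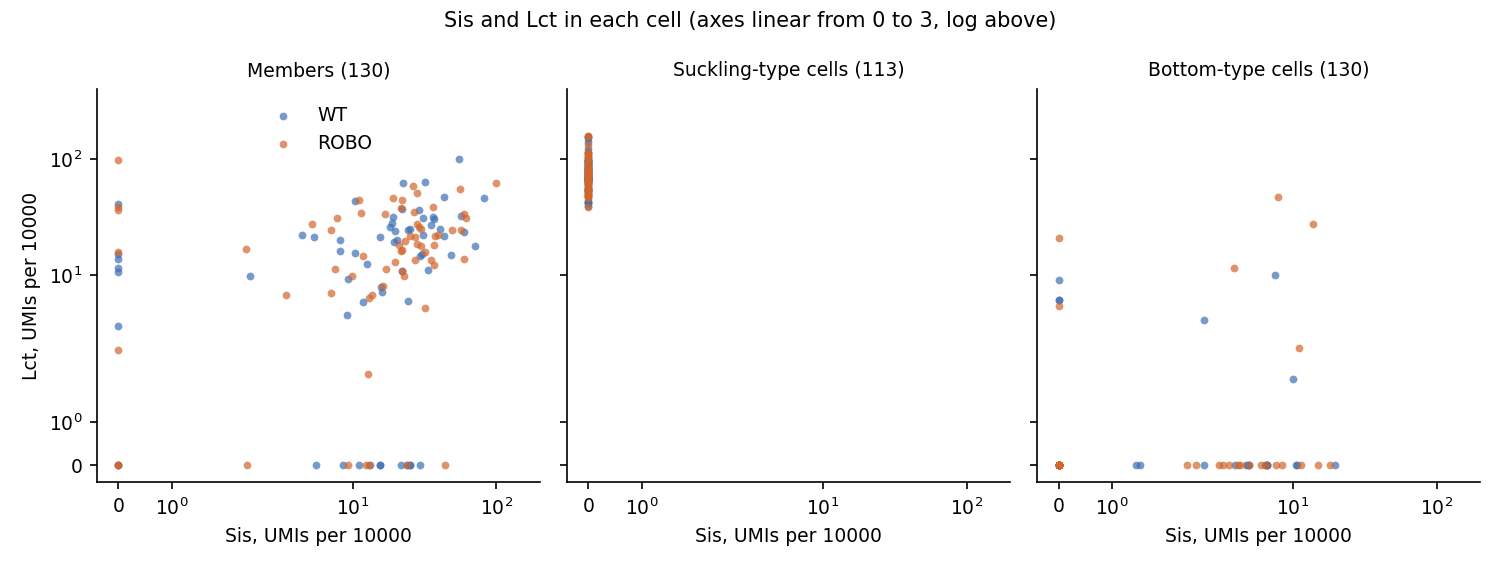
Each point is 1 cell, with its *Sis* level (UMIs per 10000, horizontal axis) and its *Lct* level (vertical axis), in WT (blue) and ROBO (orange). Both axes are linear from 0 to 3 and logarithmic above. Members fill the area where both are above 0, the 113 suckling-type cells lie at 0 for *Sis*, and most of the 130 bottom-type cells lie at or near 0 for *Lct*.

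Several genes known from the lower villus were far above suckling-type cells. Of 4686 genes compared, 619 (13.2%) were at least 2-fold higher and 505 (10.8%) at least 2-fold lower. *Reg1*, a secreted lectin, gave 458 UMIs in WT members and 471 in ROBO members, or 28.5 and 26.8 per 10000, against 5 UMIs in suckling-type cells (log2 ratio 6.88, 5.66 to 8.51). *Reg3a*, an antibacterial lectin, gave 85 UMIs in the members and 0 in suckling-type cells, at least 18.0-fold higher when the limit of 3 counts over the set is used. *Dmbt1*, a mucosal scavenger glycoprotein, gave 480 UMIs against 5 (log2 ratio 5.93, 4.70 to 7.56). *Mt2*, a metallothionein that binds zinc, gave 544 UMIs against 11, a log2 ratio of 4.97 (4.12 to 5.98), whereas its neighbour *Mt1* differed by 0.16 (0.02 to 0.29). *Ms4a18* gave 80 UMIs against 0, and the unnamed transcript listed as *2210407C18Rik* gave 651 against 3. Of the 9 bottom-of-villus genes compared, 5 were at least 2-fold higher and 2, *Reg3b* and *Il18*, at least 2-fold lower. Against all other eligible cells 2 of 12, *Reg1* and *Reg3a*, were higher and 3 lower, where 6.78% and 29.8% of all genes were. The list median there was -0.54 against -0.41 over all genes.

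On the low side of the same comparison, the lowest ratio after that of *Dab2*, among genes with at least 50 UMIs and at most 25% of them in 1 cell, was that of *Npl*, which splits sialic acid, with 4 UMIs in the members and 116 in suckling-type cells (log2 ratio -5.51, -7.41 to -4.12). *Slc17a5*, the lysosomal sialic acid exporter, gave 5 against 67, and *Renbp*, an enzyme of amino sugar metabolism, 7 against 77. Of 22 lysosomal genes compared, 10 were at least 2-fold lower in the members and 0 were 2-fold higher, with a median of -0.86 against 0.05 over all genes. *Ctsl*, encoding cathepsin L, gave 10 UMIs in the members, 53 in suckling-type and 511 in top-type cells. Against top-type cells 14 of 22 lysosomal genes were at least 2-fold lower, beside 10.4% of all genes, and 1, *Scarb2*, was 2-fold higher. Against bottom-type cells 4 of 19 were higher and 1 was lower, where 10.5% and 20.3% of all genes were. Against all other eligible cells 0 of 24 were higher and 5 lower, where 6.78% and 29.8% of all genes were. The list as a whole was at 41.4 UMIs per 10000 in the members, 33.7 in bottom-type and 43.6 in the other eligible cells.

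Glutathione transferases, which conjugate toxic compounds to glutathione, were mostly on the high side. Of 14 glutathione transferases compared with suckling-type cells, *Gsta1* left aside, 9 were at least 2-fold higher and 0 were 2-fold lower, with a median of 2.08 on the log2 scale (1.98 with the gene at 0 UMIs placed at its limit). Over all genes 13.2% were higher and 10.8% lower in that comparison. Against top-type cells, where 30.0% of all genes were higher and 10.4% lower, 11 of 14 were at least 2-fold higher and 0 lower. *Gstm3* was at 3.61 UMIs per 10000 in WT members and 2.90 in ROBO members, against 0.187 in suckling-type, 1.01 in bottom-type and 0.0471 in top-type cells. *Mgst1*, a membrane-bound transferase, was at 8.04 and 8.54 in WT and ROBO members, against 1.36 in suckling-type cells, and its ratio to bottom-type cells had an interval that included 0 (log2 ratio -0.01, -0.26 to 0.24). The list as a whole was close to bottom-type cells, with 3 of 16 at least 2-fold higher, 0 lower and a median of 0.20 against -0.28 over all genes.

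Phase 1 enzymes, which oxidise or hydrolyse foreign compounds, were in the majority higher than in each of the 3 sets. Of the genes compared, 11 of 20 were at least 2-fold higher than in suckling-type cells, 14 of 22 than in bottom-type cells and 13 of 20 than in top-type cells, while *Cyp2c68* alone was 2-fold lower, in the first and the last. The shares of all genes that were higher in these comparisons were 13.2%, 10.5% and 30.0%. The carboxylesterase *Ces2e* was at 22.0 and 19.6 UMIs per 10000 in WT and ROBO members, against 7.68, 7.76 and 2.87 in suckling-, bottom- and top-type cells. The alcohol dehydrogenase *Adh6a* gave 344 UMIs in the members, 148 of them in WT, against 32, 156 and 7 in the 3 sets. *Cyp4v3*, a fatty acid hydroxylase, was at 3.24 and 3.19, against 0.375, 0.714 and 0.141. *Cyp3a11*, a cytochrome P450 of drug metabolism, was sparse, with 21 UMIs in the members and 2, 0 and 3 in the 3 sets. Glucuronidation and sulfation genes differed less from suckling-type cells, with 3 of 13 at least 2-fold higher, 1 lower and a median of 0.10.

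Of 12 retinoid genes compared with suckling-type cells, besides *Aldh1a1*, 5 were at least 2-fold higher and 2 lower, where 13.2% and 10.8% of all genes were. Against bottom-type cells 5 of 10 were higher and 0 lower, where 10.5% and 20.3% of all genes were. Against top-type cells 5 of 12 were higher and 2 lower, where 30.0% and 10.4% of all genes were. *Rdh7*, a retinol dehydrogenase, was at 2.06 and 3.19 UMIs per 10000 in WT and ROBO members, against 1.03, 0.195 and 0.0942 in suckling-, bottom- and top-type cells. *Retsat*, a retinol saturase, was at 3.30 and 4.16, against 0.937, 1.46 and 0.141. *Lrat*, which stores retinol as an ester, gave 12 UMIs in the members and 36 in suckling-type cells (log2 ratio -2.24, -3.32 to -1.26). *Rbp2*, which carries retinol in enterocytes, differed from suckling-type cells by -0.19 (-0.75 to 0.39) and from bottom-type cells by 4.90 (2.99 to 7.97), where it gave 2 UMIs. Of the other glycerophosphodiesterase genes, *Gde1* gave 88 UMIs in the members and 16 in bottom-type cells (log2 ratio 2.33, 1.55 to 3.20), and at most 3 genes of that family could be compared in any set.

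**Figure D3:**
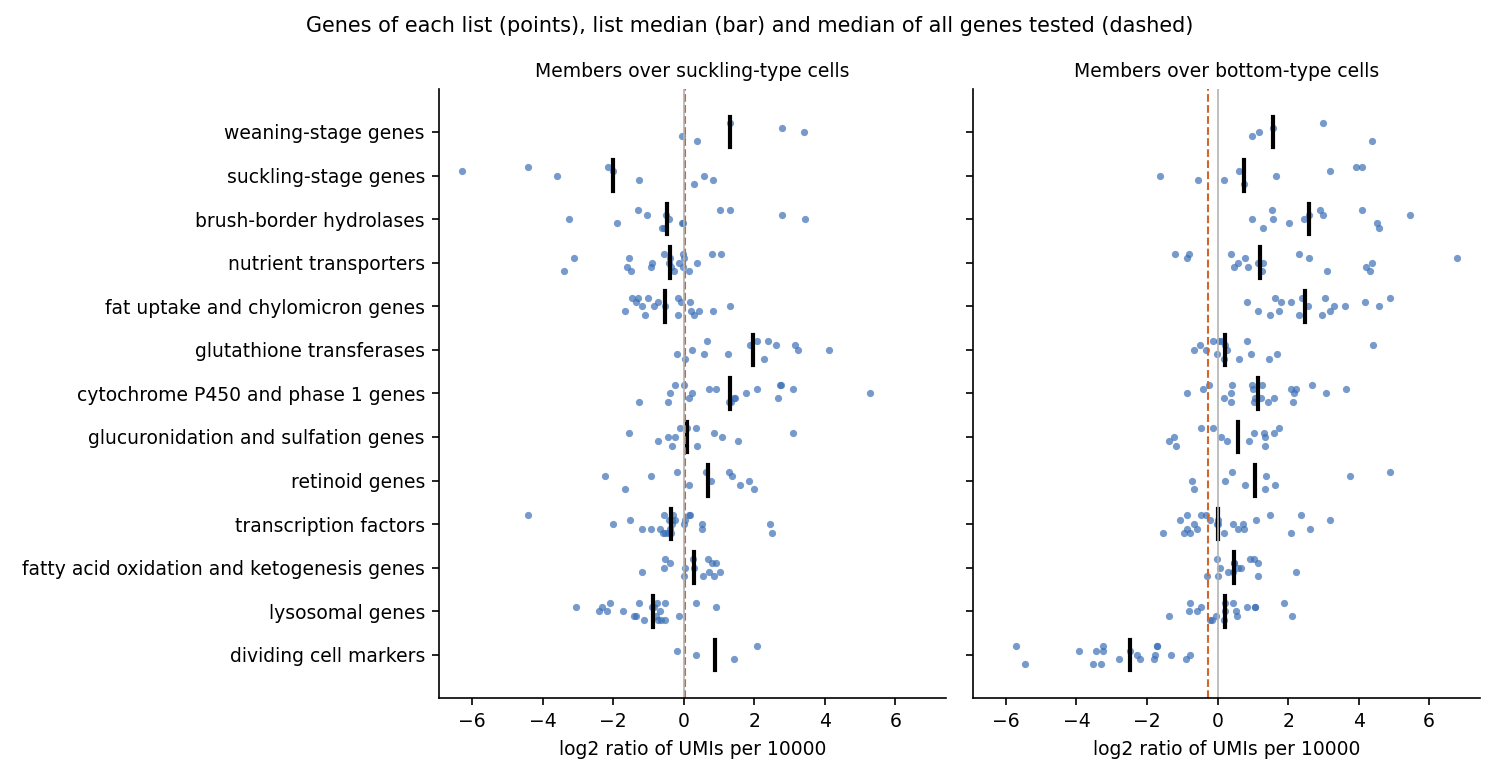
Log2 ratio of UMIs per 10000, members over suckling-type cells (left) and over bottom-type cells (right), for each gene of 13 lists (points) with at least 20 UMIs over both sets. Genes used to choose either set are left out and genes at 0 UMIs in 1 set are placed at the limit of 3 counts. Bars are list medians and the dashed line is the median of all genes compared, 0.05 on the left and -0.28 on the right, and glutathione transferases and phase 1 genes lie to the right of it on the left side while lysosomal and suckling-stage genes lie to its left.

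Compared with bottom-type cells, the members carried the absorptive machinery and few transcripts of cell division. Of 5658 genes compared, 594 (10.5%) were at least 2-fold higher and 1150 (20.3%) at least 2-fold lower. All but 1 of 14 enterocyte markers were at least 2-fold higher, as were 17 of 18 genes of fat uptake and chylomicron assembly and 12 of 13 brush-border hydrolases. *Apoa1*, a chylomicron and HDL apolipoprotein, gave 1423 UMIs in WT members and 1532 in ROBO members against 91 in bottom-type cells (log2 ratio 4.90, 4.59 to 5.21). *Slc2a2*, the glucose transporter of the basolateral side, gave 120 against 1 (log2 ratio 6.78, 4.28 to 12.1). *Guca2b*, the precursor of uroguanylin, gave 735 against 12, and *Slc51b*, a subunit of the bile acid exporter, 61 against 1. On the low side, 17 of 19 dividing cell markers were at least 2-fold lower and 0 were higher. *Top2a*, a topoisomerase of dividing cells, gave 9 UMIs in the members and 79 in bottom-type cells (log2 ratio -3.26, -4.44 to -2.26). *Lypd8*, a lumenal protein of the lower villus, was at nearly the same level (log2 ratio 0.00, -0.12 to 0.11), at 36.9 UMIs per 10000 in the members and 37.0 in bottom-type cells. Against suckling-type cells 3 of 14 enterocyte markers, 1 of 19 fat uptake genes and 4 of 14 hydrolases were at least 2-fold higher, beside 13.2% of all genes. In that comparison 4, 7 and 4 of them were lower, beside 10.8%. Against top-type cells 6 of 14, 6 of 19 and 5 of 15 were higher and 3, 7 and 4 lower, where 30.0% and 10.4% of all genes were.

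*Apoa4*, an apolipoprotein of chylomicrons, lay between the sets. It was at 215 UMIs per 10000 in WT members and 201 in ROBO members, against 11.5 in bottom-type, 527 in suckling-type and 1596 in top-type cells. *Fabp1* was instead highest in the members, with 83.8 against 33.9 in suckling-type and 27.7 in top-type cells. It was also at least 2-fold higher in the members than in bottom-type cells. *Anpep*, an aminopeptidase of the brush border, gave 291 UMIs in the members, 17 in suckling-type, 66 in bottom-type and 0 in top-type cells. Of 4518 genes compared with top-type cells, 30.0% were at least 2-fold higher in the members and 10.4% at least 2-fold lower. Fatty acid oxidation and ketogenesis genes were at least 2-fold higher than in top-type cells in 10 of 15 cases and 2-fold lower in 0, but the median of all genes in this comparison was itself 0.43. Against suckling-type cells 1 of 15 was higher and 1 lower, beside 13.2% and 10.8% of all genes. Against bottom-type cells 4 of 15 were higher and 0 lower, beside 10.5% and 20.3%. The list was at 87.2 UMIs per 10000 in the members, 88.7 in suckling-type, 51.9 in bottom-type and 42.9 in top-type cells.

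Of 25 transcription factors compared with suckling-type cells, where 13.2% of all genes were higher and 10.8% lower, 2 were at least 2-fold higher, *Ppargc1a*, a coactivator of mitochondrial genes, and *Vdr*, the vitamin D receptor, and 4 were lower, with *Prdm1*, *Maf* and *Klf4* among them. *Ppargc1a* gave 27 UMIs in the members and 3, 4 and 2 in suckling-, bottom- and top-type cells. *Hnf4g*, a nuclear receptor of enterocytes, was at 5.24 UMIs per 10000 in the members and between 1.37 and 3.83 in the 3 sets, whereas *Hnf4a* was at 3.42 in the members and 7.21 in bottom-type cells. *Cdx2* gave 14 UMIs in the members, so its ratios are imprecise. Of the 6 ileal genes on the list, *Fabp6* and *Slc10a2* were at 0 in the members, which allows at most 0.0893 UMIs per 10000, while *Slc51a* and *Slc51b*, the subunits of the bile acid exporter, gave 187 and 61 UMIs, or 5.56 and 1.82 per 10000. The protocol took crypts from the duodenum and jejunum, so the values at 0 are not a trait particular to the members. The whole list was at 8.90 in the members, 11.6 in suckling-type, 2.63 in bottom-type and 8.19 in top-type cells.

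**Figure D4:**
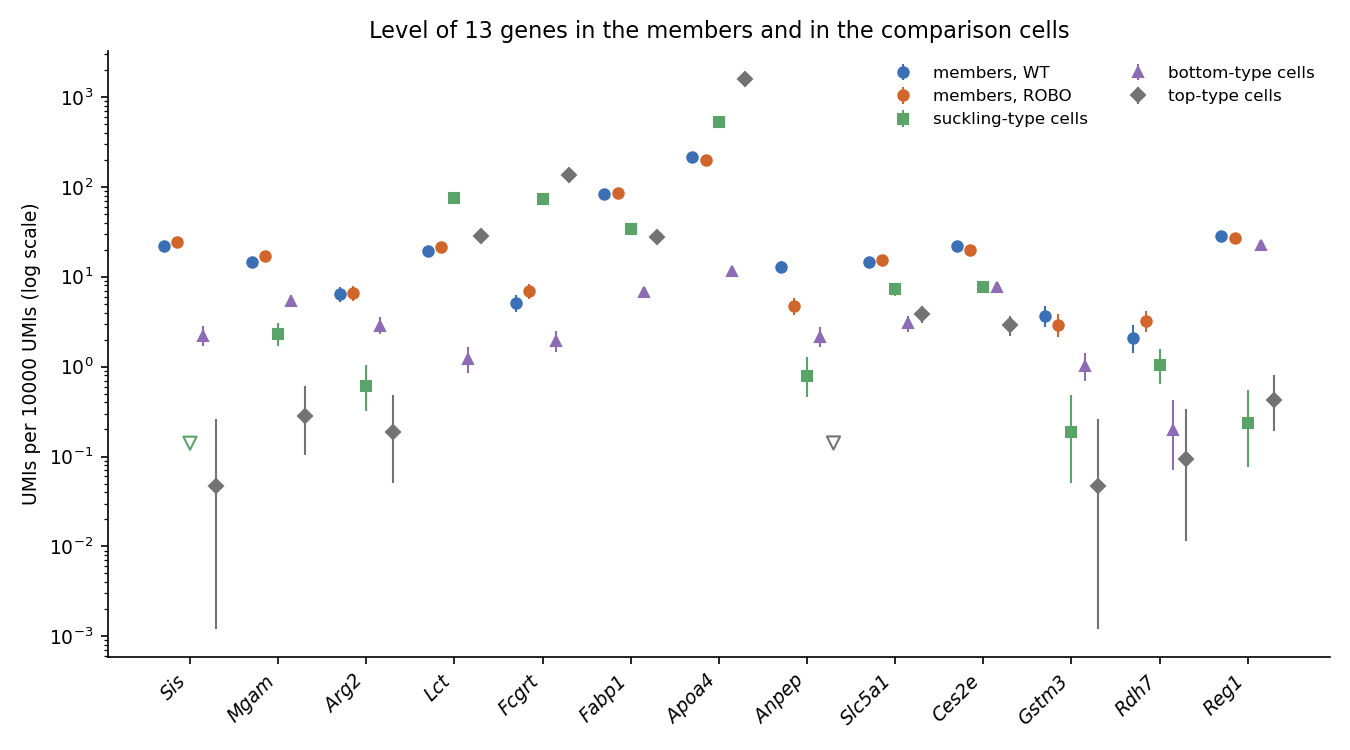
Level (UMIs per 10000, log axis) of 13 genes in WT members (blue), ROBO members (orange) and suckling-type, bottom-type and top-type cells, with 95% Poisson intervals. Open triangles mark the limit of 3 counts where a set held 0 UMIs. The points of WT and ROBO members are farthest apart for *Anpep*, and *Fcgrt* and *Apoa4* in the members lie below suckling-type and top-type cells.

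The members were not uniform. Across the 130 members, per-cell levels of *Sis* went with *Mgam* (Spearman rho 0.46) and with *Lct* (0.35), those of *Papss2* with *Reg1* (0.55) and those of *Cyp2d26* with *Apoa4* (0.57), while *Papss2* and *Sis* did not go together (-0.10). These cells come from 2 pools and share the score that chose them, and *Sis*, *Papss2* and *Cyp2d26* are genes of that score, so the values only describe them. The 66 members with *Papss2* held *Reg1* at 38.9 UMIs per 10000 (36.2 to 41.7) and the 64 without it at 10.2 (8.53 to 12.1), with median depths of 2893 and 1812.5 UMIs. The 91 members with *Cyp2d26* held *Apoa4* at 250 per 10000 and the 39 without it at 103, whereas *Dmbt1* was at 9.10 and 27.2. The 15 members without *Sis*, 8 WT and 7 ROBO, held *Mgam* at 5.92 per 10000 against 16.7 in the 115 with it, and had a median depth of 1444 against 2211 UMIs.

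Levels changed gradually with the score. In the 65 highest members, the 65 lower members and the 65 cells ranked next after them, *Mgam* was at 21.3, 9.66 and 7.41 UMIs per 10000, *Fabp1* at 110, 53.7 and 44.4, and *Anpep* at 10.7, 6.24 and 6.41. *Lct* was at 24.6 in the upper members and 15.5 in both the lower members and the next 65 cells. *Dmbt1* ran the opposite way, at 6.75, 23.0 and 36.2, and *Reg1* was nearly level, at 29.1, 26.0 and 25.7. Lower members and the next 65 cells thus differed less in *Mgam*, *Fabp1* and *Anpep* than upper and lower members did.

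WT and ROBO cells were then compared within the members. Of 3224 genes with at least 20 UMIs over both genotypes, 153 (4.75%) were at least 2-fold higher in ROBO and 148 (4.59%) at least 2-fold lower. Of 9 suckling-stage and 5 weaning-stage genes compared, 0 were 2-fold apart, and of 19 phase 1 genes 0 were. *Lct* differed by a log2 ratio of 0.12 (-0.10 to 0.34) and *Mgam* by 0.21 (-0.04 to 0.46), ROBO over WT. The level of *Sis* in both genotypes is set by the score. All 7 goblet markers compared were at least 2-fold lower in ROBO. Without the 5 members rich in goblet or enteroendocrine markers, 3 could be compared, of which 1 was 2-fold lower, with a list median of 0.16.

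Among genes with at least 50 UMIs and at most 25% of them in 1 cell, the lowest ratio was that of *Anpep*, with 208 UMIs in WT members and 83 in ROBO members (log2 ratio -1.46, -1.84 to -1.08), in 49 WT and 42 ROBO members. The same gene was lower in ROBO in bottom-type cells, with 50 and 16 UMIs (log2 ratio -1.56, -2.48 to -0.73), and in all other eligible cells (-0.76, -1.03 to -0.49). In suckling-type cells it gave 9 UMIs in WT and 8 in ROBO (0.45, -1.12 to 2.00). *Cldn7*, a tight junction protein, gave 101 UMIs in WT and 42 in ROBO members (log2 ratio -1.40, -1.95 to -0.86) and was also lower in the other eligible ROBO cells (-0.48, -0.61 to -0.35). The ribosomal protein gene *Rpl39*, which has near-identical copies, gave 58 and 24 UMIs. All 10 genes named for being lower in ROBO members were lower in ROBO in the other eligible cells as well, with log2 ratios between -0.89 and -0.08, and 0 of them reached 2-fold there. In suckling-type cells only *Cldn7* and *Mrpl52* of these genes were lower in ROBO, both at -0.38 with intervals that included 0. *Aes* was higher in ROBO there (0.93, 0.19 to 1.67), and the intervals of the other genes included 0.

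Of the 10 genes named for being higher in ROBO members, 5 were higher in ROBO in the other eligible cells, with log2 ratios of all 10 between -0.51 and 0.47. *Fam13a* gave 15 UMIs in WT and 55 in ROBO members (log2 ratio 1.74, 0.90 to 2.68), in 9 and 21 cells, and -0.01 (-0.46 to 0.44) in the other eligible cells. *Epha2*, a receptor tyrosine kinase, gave 15 and 52 UMIs (1.66, 0.81 to 2.60), against -0.19 (-0.46 to 0.09) elsewhere. *Ppia*, encoding cyclophilin A, gave 43 and 109 UMIs and was higher in ROBO in the other cells too, by 0.31 (0.20 to 0.43). *Reg3a* gave 23 and 62 UMIs, in 16 WT and 14 ROBO members, and *Reg3b*, a related lectin, 22 and 55 in 10 and 12, with 24.7% of its UMIs in 1 cell. When only the 65 highest-scoring members were kept, *Reg3b* gave 10 UMIs in ROBO and 12 in WT cells and its log2 ratio turned to -0.22. In the other eligible cells *Reg3b* was lower in ROBO, with a log2 ratio of -0.51 (-0.62 to -0.40). The related *Reg3g* went the other way in the members and was at least 2-fold lower in ROBO. Of 9 bottom-of-villus genes compared there, 3 were at least 2-fold higher in ROBO and 1 lower, beside 4.75% and 4.59% of all genes. Whether the difference of any gene in the members differs from that in the other cells was not tested, and with 1 pooled sample a genotype, mouse, library and genotype cannot be told apart.

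**Figure D5:**
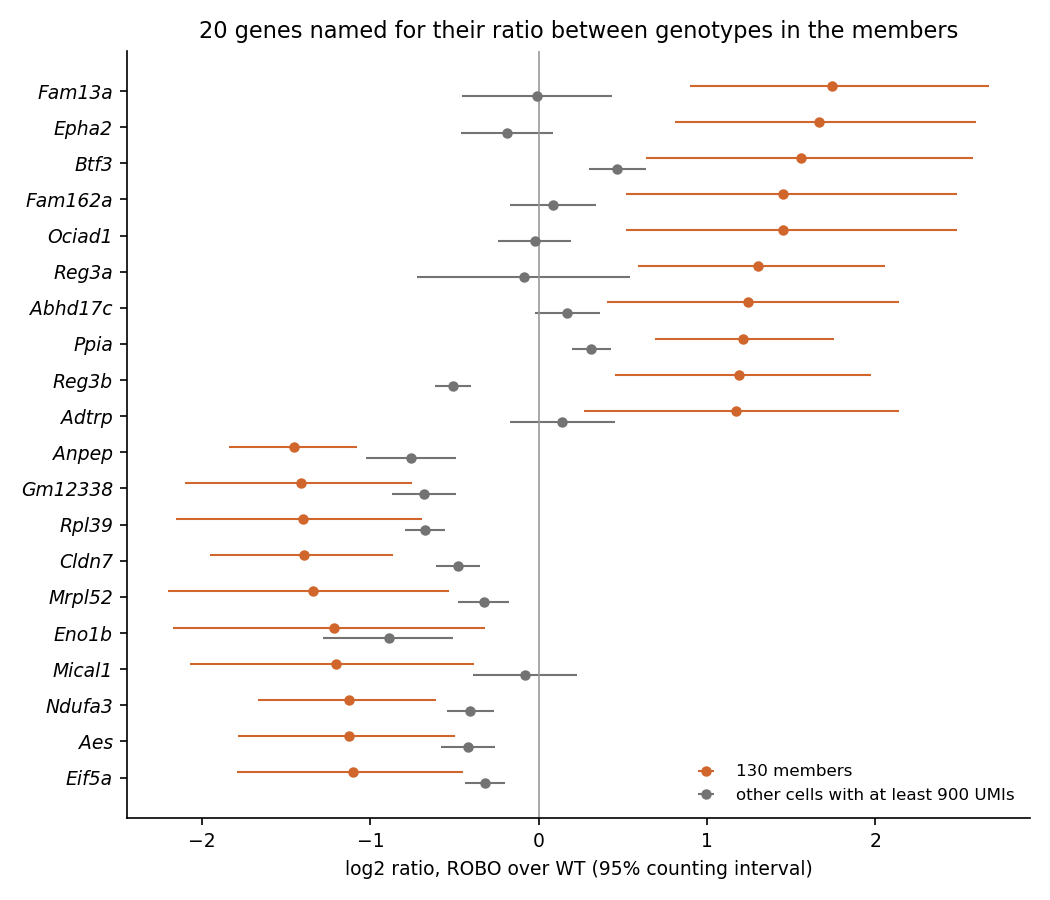
Log2 ratio of UMIs per 10000, ROBO over WT, with 95% counting intervals, of the 10 genes highest and the 10 lowest in ROBO members among those with at least 50 UMIs and at most 25% of them in 1 cell, in the 130 members (orange) and in the other cells with at least 900 UMIs (grey). The 10 genes lower in ROBO members, from *Anpep* with -1.46 down to *Eif5a*, all have grey points below 0, and those of the upper 10 lie on both sides of 0.

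The contrasts between sets of cells were also taken within each genotype. Of 2347 genes with at least 20 UMIs in the WT and in the ROBO comparison of members with suckling-type cells, 311 were at least 2-fold higher in WT and 365 in ROBO. Of these, 165 were called in both, 53.1% of the first and 45.2% of the second, and 8 genes were called in opposite directions. Of the genes called lower, 47.0% of those in WT and 48.2% of those in ROBO were called so in both. Of 2967 genes compared with bottom-type cells in both genotypes, 271 were higher in both, 72.1% of those called in WT and 63.3% of those in ROBO, 252 were lower in both, 49.7% and 52.9%, and 3 were opposite.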

How the data were processed

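The authors prepared libraries with a SureCell droplet 3′ kit, which tags each molecule with a UMI, built gene matrices in the BaseSpace hub of Illumina, and deposited raw counts per gene and cell, 1 matrix per genotype (WT, 2682127 UMIs in 1348 cells; ROBO, 2428435 UMIs in 1249 cells), without normalization. The submitters' processing notes name the builds mm10 and GRCm38; the aligner, the counting of strand and the rule that called cells are not given in the sources used here. The matrices list 24421 genes by symbol. Some symbols were altered, with a dot for a hyphen or an X before a digit.

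Members, comparison sets and gene lists were chosen with earlier results of these data known. Counts were summed over the cells of a set and scaled to 10000 UMIs with Python 3.11.15, numpy 2.4.6 and pandas 2.3.3. Sums have exact Poisson, shares Clopper-Pearson, differences of shares Newcombe and ratios conditional exact 95% intervals (scipy 1.17.1), which cover counting error only. A gene was compared with at least 20 UMIs over both sets and called at 2-fold. Where a set held 0 UMIs, 3 counts over the set were used as the limit. A cell that ranked in more than 1 comparison score went to the set in which its rank was best. No test or p-value was computed, since each genotype is 1 pooled sample and cells are not replicates. Named genes are those of the lists and, in each comparison, the 10 largest ratios in each direction among genes with at least 50 UMIs and at most 25% of them in 1 cell, of which the text gives a part. Some members of the lists are not reported here. Other numbers of members, UMI minimums, folds, scalings and scores were tried, and 2 alternatives were added after seeing the data. Tuft and antigen presentation lists were among 28 lists. Against suckling-type cells 0 of 7 antigen presentation genes were 2-fold higher and 1 was lower. Of 11 immediate-early genes 0 were higher and 2 lower. Over all genes in that comparison 13.2% were higher and 10.8% lower, so these few genes do not set either list apart. Scrublet, run per genotype through scanpy 1.11.5, marked 2 WT and 2 ROBO cells as doublets, under 0.5% of cells, and 0 members. They were kept in the main values. The script was tested on simulated data.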

Additional observations from a re-analysis of the deposited data

Results flagged for a closer look

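Cells under 900 UMIs were outside every comparison, and 2 values in them are given as a description, since both rest on the genes of the score and a count above 0 places them over the limit for 0 by itself. These 636 cells, 355 WT and 281 ROBO, held 447449 UMIs with a median of 693 per cell. *Sis* was at 1.16 UMIs per 10000 there (52 UMIs, 0.868 to 1.52), against a limit of 0.0670 for 3 counts. A score at or above that of the last member was reached by 38 of them, 30 WT and 8 ROBO, or 5.97% (4.26 to 8.11).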

How the results depend on the processing

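The difference in the share of members between genotypes stayed within its main interval under 7 alternatives and under 2 more that were chosen after seeing the data, from -0.221 points with 65 members to 2.58 points with a minimum of 1500 UMIs per cell, and every interval included 0. The numbers of genes at least 2-fold apart followed the number of UMIs required. With a minimum of 50 UMIs a gene, 450 genes were apart from suckling-type cells (main 1124), 720 from bottom-type cells (main 1744, with the share of calls that were higher moving from 34.1% to 48.3%) and 48 between genotypes (main 301). With a minimum of 10 UMIs these were 1844, 2708 and 893, and at 3-fold they were 406, 723 and 62. With 65 members, 182 genes were apart between genotypes. In WT cells alone 1041 genes were apart from bottom-type cells, and in ROBO cells alone 1068, and 728 from suckling-type cells. These settings test other numbers of genes or cells by construction. With 65 members 44.8% of the genes apart from suckling-type cells were higher and with 260 members 67.9%, against 55.1% in the main values. Leaving *Sis* out of the score kept 75.4% of the members and leaving out *Gsta1* kept 97.7%.

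Of 2592 values of single genes under the alternatives, 2419 stayed within their main interval, 165 left it and 8 turned. A turn was counted only where the main interval excluded 0, so the 165 can include changes of sign. The fold of 3 and the minimums of 10 and 50 UMIs do not enter a ratio, so their 169 values each stayed by construction. Removing doublets took away 0 members, and its 169 values stayed as well. Of the 8 values that turned, that of *Reg3b* had been more than 2-fold apart. Between genotypes, *Reg3b* went from 1.19 to -0.22 and *Fcgrt* from 0.43 to -0.090 with 65 members, *Mt2* went from 0.30 to -0.049 with 260 members, and *Apoa4* (main -0.10) was at 0.057 with at least 1500 UMIs per cell, 0.25 with 260 members and 0.043 with equal weight per cell. *Fabp2* against suckling-type cells went from 0.44 to -0.014 with 260 members, and *Mt2* against bottom-type cells from 0.31 to -0.20 in WT cells alone. The cause was not tested. No paired analysis was possible because the cells of a genotype carry no replicate number. The limits are set by 1 pooled sample a genotype and by sparse counts: a gene at 20 UMIs over both sets is called at ratios that its interval barely resolves.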
